A study of Mus musculus with 77 samples.

Results

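The Myt1 family (Myt1, Myt1l, St18) and the SoxC group (Sox4, Sox11, Sox12) were followed in mouse pancreatic ductal organoids made to express Ngn3. These 6 genes were taken by name from the deposited table of read counts for 46078 genes, and all 6 were detected in enough libraries to be tested. They and the gene lists used below were chosen with earlier results of these data known. Their counts and medians set beside all genes are therefore a description and no test of the set. Organoids are cultures of duct cells grown in a gel, here from C57BL/6 mice, and they carried lentiviral vectors whose expression was induced from a Tet-on promoter. The vectors encoded GFP only, GFP with wild-type (WT) Ngn3, or GFP with 6S-A Ngn3, in which the serine of each of 6 serine-proline sites is changed to alanine so that it cannot be phosphorylated. At 2 days of induction, GFP-only, WT and 6S-A cells were sorted for GFP. At 8 days, WT and 6S-A cells were sorted for GFP, and the controls were "no-color" cells from WT or from 6S-A organoids, which had therefore been through the same infection and culture but had no GFP. A library was made from 50 sorted cells pooled together. Each of the 7 groups has 3 biological replicates, in 18 libraries per group at 2 days and in 4 to 6 at 8 days after 1 library under the read limit was left out. Organoids were at passage 2, and only replicate 3 at 8 days was at passage 5. Whether replicates came from separate mice is not given in the sources used here, so p-values measure the spread between these samples.

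Myt1, Myt1l and St18 encode zinc finger proteins that bind DNA through repeated CCHC fingers and recruit corepressors. They are known from neurons and from the endocrine pancreas, where Myt1 is switched on in Ngn3-expressing progenitors and where loss of the family harms beta cells. Sox4, Sox11 and Sox12 encode closely related HMG-box activators that act in progenitors of many tissues, the embryonic pancreas among them, and Sox4 is known to act with and upstream of Ngn3 there. Ngn3 (gene symbol Neurog3) is a bHLH factor that starts the endocrine programme and binds E-boxes, DNA words of the form CANNTG.

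On GRCm38 the 3 Myt1 family genes are long and split into many exons. Myt1 lies at chr2:181763332-181827797 on the plus strand, Myt1l at chr12:29528384-29923213 on the plus strand and St18 at chr1:6487231-6860940 on the plus strand, with up to 23, 25 and 24 exons in 1 transcript. The SoxC genes are short. Sox4 lies at chr13:28948919-28953713 and Sox11 at chr12:27334264-27342574, both on the minus strand and each a single exon, and Sox12 lies at chr2:152393611-152398063 on the minus strand with at most 2 exons. Over 54.6% of its exon bases, Sox4 overlaps the lincRNA Gm26735 on the other strand. The table holds 3 reads for Gm26735 over all libraries. Whether reads were counted by strand is not given in the sources used here, and without strand Sox4 reads in the overlap would be set aside as ambiguous in every group, so that the levels of Sox4 may be too low.

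RefSeq promoter windows (GRCm38.p6) were at hand for 5 of the 6 genes. The 250 bases before the RefSeq start are shown for Myt1, whose counts moved most with Ngn3 at 2 days, and for the 3 SoxC genes, with every CANNTG in capitals. The pattern reads the same on both strands.

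Myt1 (first of 3 starts, chr2:181763082-181763331, plus): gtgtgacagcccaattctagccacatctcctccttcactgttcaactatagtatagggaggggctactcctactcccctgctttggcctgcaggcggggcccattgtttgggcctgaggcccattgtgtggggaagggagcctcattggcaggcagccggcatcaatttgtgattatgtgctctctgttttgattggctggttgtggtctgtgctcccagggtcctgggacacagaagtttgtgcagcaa

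Sox4 (chr13:28953700-28953949, minus): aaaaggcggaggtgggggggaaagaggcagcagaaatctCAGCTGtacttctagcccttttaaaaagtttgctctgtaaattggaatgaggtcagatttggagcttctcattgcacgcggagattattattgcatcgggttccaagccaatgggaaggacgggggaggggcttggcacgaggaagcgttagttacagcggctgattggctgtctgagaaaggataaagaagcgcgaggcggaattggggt

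Sox11 (chr12:27342719-27342968, minus): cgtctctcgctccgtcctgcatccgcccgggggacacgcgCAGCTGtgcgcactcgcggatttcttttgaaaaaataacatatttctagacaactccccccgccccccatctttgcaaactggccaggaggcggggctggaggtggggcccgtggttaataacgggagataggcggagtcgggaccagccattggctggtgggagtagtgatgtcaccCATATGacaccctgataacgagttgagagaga

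Sox12 (chr2:152398047-152398296, minus): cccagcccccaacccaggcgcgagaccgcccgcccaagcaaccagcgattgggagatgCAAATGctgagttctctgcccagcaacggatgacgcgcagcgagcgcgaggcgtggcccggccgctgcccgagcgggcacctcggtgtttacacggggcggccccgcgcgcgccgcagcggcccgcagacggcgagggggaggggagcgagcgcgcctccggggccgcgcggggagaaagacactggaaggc

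The window of the first Myt1 start held no CANNTG, while those of its other 2 starts held 2 and 1. Sox4 had 1, a CAGCTG that begins 211 bases before the start. Sox11 had a CAGCTG at 210 bases and a CATATG at 32 bases before the start, and Sox12 had a CAAATG at 192 bases. Among all 32851 windows of this length, 66.2% held a CANNTG and 3.46% a CATATG, so the presence of an E-box here is the common case. A match describes the letters of the window and is no evidence of binding.

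Depth was 1501002 to 5632412 reads on genes per library at 2 days and 2397470 to 9202142 at 8 days, and the sums per replicate were 17757303 to 26627347 and 2397470 to 17919627 reads. Neurog3, the gene carried by the vectors, checked the labels: it had 133 ± 63.2 CPM (counts per 1000000 gene reads, with TMM factors that correct for library composition, mean ± SD of the 3 summed replicates, as for all levels below) in WT and 139 ± 52.3 in 6S-A cells at 2 days, against 4 reads in all GFP-only libraries. At 8 days it had 22.4 ± 20.8 in WT and 12.7 ± 2.75 in 6S-A cells and at most 0.989 CPM in any no-color replicate. Reads of the vector and of the cell's own gene cannot be told apart. Of 12 ductal markers, 12 were over 1 CPM in every group except 6S-A at 8 days, where 11 were. Their summed level was 18040 to 19790 CPM in GFP-only cells, 11600 to 12420 in WT and 10160 to 10560 in 6S-A cells at 2 days. The acinar, mesenchymal, endothelial, immune and Schwann or neural crest lists summed to at most 20.7, 5.18, 10.3, 16.0 and 9.26 CPM in any replicate, and Sox10, a defining neural crest marker, had no read in 4 of the 7 groups.

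At 2 days, 4 of the 6 genes were higher in WT Ngn3 cells than in GFP-only cells (edgeR quasi-likelihood test, adjusted p under 0.05), where 6.56% of the 23844 genes tested were called higher and 11.8% were called in either direction. In 6S-A cells 5 of the 6 were higher, where 9.43% of genes were called higher and 18.1% in either direction. The 6 genes had a median log2 fold change of 2.07 in WT and 2.50 in 6S-A cells, against 0.01 and 0.02 over all genes. As the 6 were chosen with earlier results of these data known, these counts and medians describe them and are no test. Myt1l, which has few reads, is 1 of the 2 middle genes, and the medians were 3.33 and 3.76 without GFP-only replicate 2, and 1.29 and 1.36 under edgeR's own filter, which leaves Myt1l out. None of the 6 was called lower, where 5.23% and 8.62% of genes were. When the replicate number entered the fit as a block, 4291 genes in place of 2810 were called in WT cells, and the members called stayed 4. The size of the response ranged from near-silent genes that became well expressed (Myt1, St18), through a gene of moderate level that rose with either protein (Sox11), to a gene with no difference past the threshold (Sox12). In pools, more cells expressing a gene and more RNA per cell cannot be told apart. The summed list of 6 hormones went from 0.370 to 0.842 CPM in GFP-only cells to 54.5 to 190 in WT and 203 to 657 in 6S-A cells. Nearly all of it was ghrelin (Ghrl, 54.3 to 188 CPM in WT and 36.4 to 571 in 6S-A cells) and, in 6S-A cells, somatostatin (Sst, 86.0 to 436 CPM, against 0.209 to 14.9 in WT), while the insulin genes Ins1 and Ins2 had no read in any of the 3 groups and Gcg and Ppy had at most 1.75 and 3.75 CPM. The endothelial list was also higher, at 0.648 to 1.5 CPM in GFP-only, 1.53 to 5.87 in WT and 2.63 to 10.3 in 6S-A cells. Kdr reached the highest level in it (9.32 CPM in a 6S-A replicate). Pecam1 had at most 0.0771 CPM in GFP-only, 0.148 to 0.471 in WT and 0.138 to 1.65 in 6S-A cells. Tek had at most 0.347, 0.262 and 0.468 CPM in the same groups. Cdh5 had at most 0.116 CPM in GFP-only and 0.0493 in WT cells, and no read in 6S-A cells. The Schwann and neural crest list was higher in WT cells without overlap (2.42 to 4.39 against 4.64 to 4.82 CPM), and the acinar list lower (3.26 to 6.71 against 1.08 to 3.13), while the ductal list was lower as given above, and the part of any of these lists in the results was not tested.

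**Figure D1:**
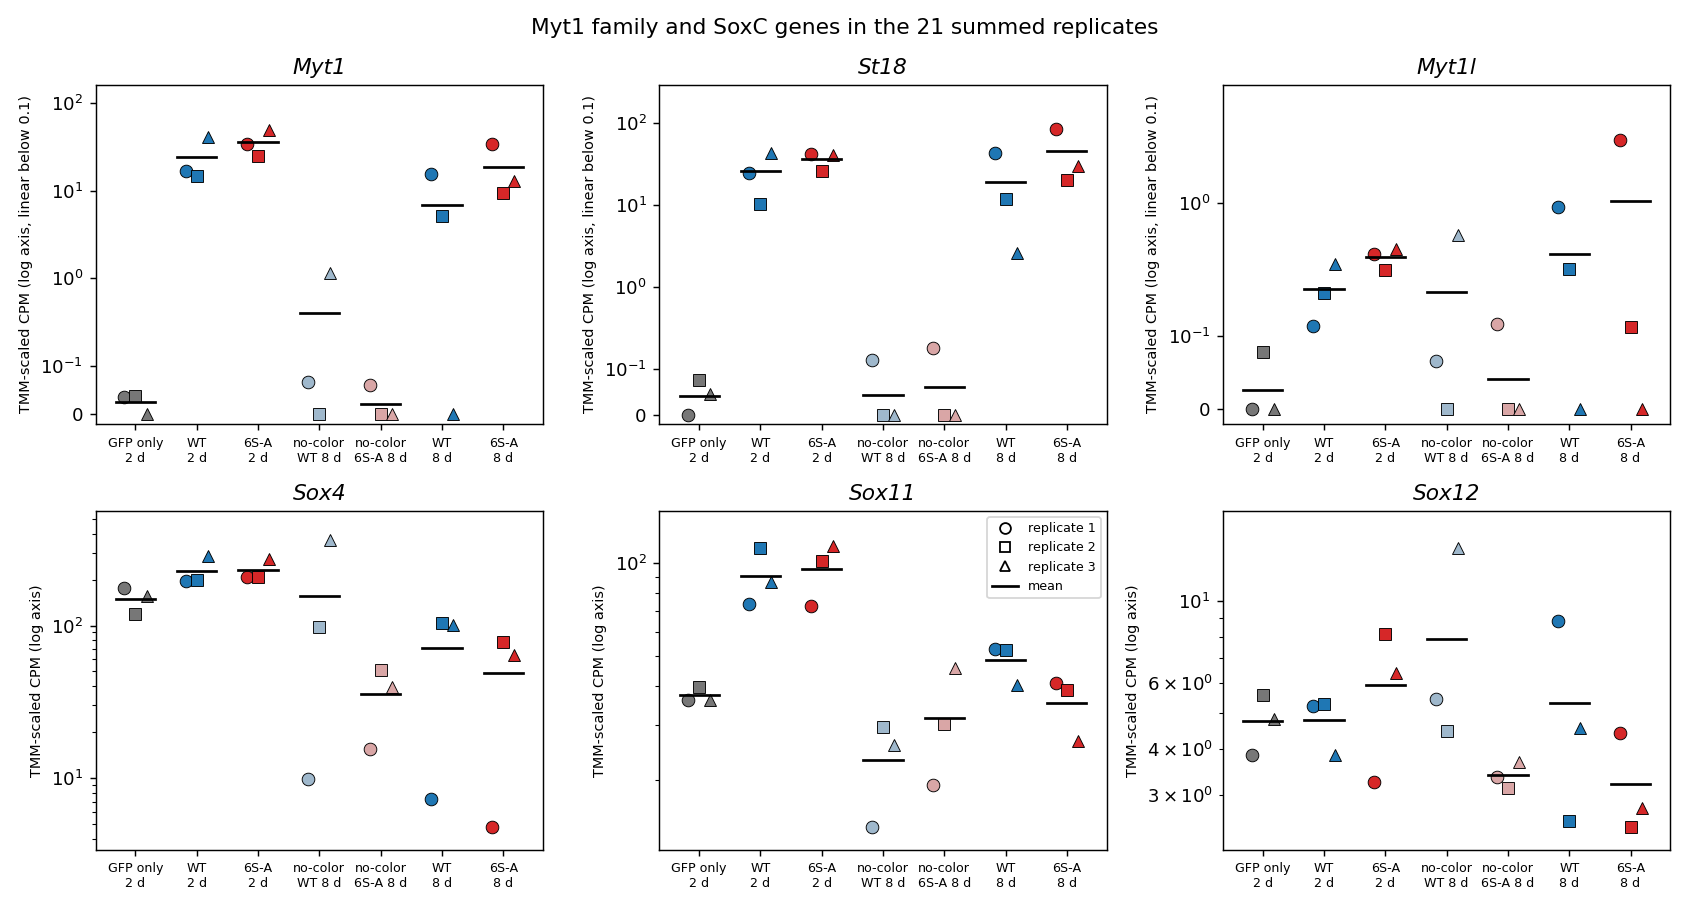
Level of each gene in the 21 summed replicates, as TMM-scaled CPM on a log axis (linear below 0.1 for the Myt1 family); symbols mark the replicate number, colours the group, and the bar is the mean of 3. Myt1 and St18 lie at or near 0 in the GFP-only and no-color cells and at 10.4 CPM or above in every Ngn3 replicate of 2 days, whereas the SoxC genes are expressed in every group.

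Myt1 was close to absent without Ngn3. GFP-only cells gave 1, 1 and 0 reads in the 3 replicates, WT cells 17.0, 14.6 and 41.5 CPM, and 6S-A cells 33.8, 25.0 and 49.5 CPM. The groups with Ngn3 did not overlap the control, as was the case for 26.2% of all genes in the WT and 32.8% in the 6S-A comparison. At least some Myt1 reads were found in all 18 pools of each Ngn3 group, at 1.72 to 58.4 CPM (in single pools without TMM scaling) in WT pools (median 22.2) and 8.78 to 85.1 in 6S-A pools (median 34.5). With 2 reads in the whole control group, the fold is known only roughly: the ratio of summed CPM was 897 in WT (95% interval of the counts, 248 to 7415) and 1373 in 6S-A cells (380 to 11350), and these intervals cover counting error only, as the libraries carried no molecular identifiers. The adjusted p was 9.37e-06 in WT and 3.00e-06 in 6S-A cells (edgeR).

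St18, whose product shares the zinc fingers of Myt1, rose in the same groups. It had 0, 2 and 1 reads in the GFP-only replicates, 24.2, 10.4 and 42.8 CPM in WT cells and 41.8, 26.0 and 39.8 CPM in 6S-A cells. Again there was no overlap with the control (as for 26.2% and 32.8% of all genes), and reads were found in all 18 pools of each Ngn3 group. The ratio of summed CPM to the control was 647 (221 to 3141) in WT and 907 (310 to 4399) in 6S-A cells, with adjusted p = 4.12e-05 and 1.49e-05 (edgeR). Replicate 2 of WT was the lowest for both genes, and there 2 of 6 pools had only 0.730 and 0.861 CPM of St18, against 6.76 to 30.6 in the other 4. Neurog3 in those 2 pools was 132 and 88.9 CPM, within the 70.1 to 132 of the replicate. When a single technical repeat stood for each replicate, the St18 calls were lost (adjusted p = 0.0942 and 0.0743, edgeR, at log2 fold changes of 9.52 and 9.34).

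Myt1 and St18 varied together from pool to pool, and in 6S-A cells so did Sox4 and Sox11. Within replicates, deviations of log2 values from the replicate mean had r = 0.818 in WT (Spearman's rho 0.888) and r = 0.668 in 6S-A pools (0.709), over 16 pools per group after near-identical technical repeats were counted once, and r was 0.845 and 0.706 without the 2 pools farthest from the median. For Neurog3 with Myt1 the values were 0.047 in WT and 0.572 in 6S-A pools, and the latter fell to 0.102 without the 2 farthest pools. For Sox4 with Sox11 they were -0.087 in WT and 0.719 in 6S-A pools (0.774 without the 2 farthest), and for Myt1 with Sox11 -0.322 and 0.297 (-0.264 and 0.567). These pools share cultures and a library protocol, so the correlations are a description.

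Myt1l, the neuronal member of the family, stayed near the limit of detection. It had 2 reads in GFP-only cells (0, 2 and 0 by replicate), 3, 4 and 7 reads in WT cells and 9, 6 and 10 reads in 6S-A cells, or 0.119 to 0.345 and 0.312 to 0.447 CPM. Reads were found in 7 of 18 WT and 8 of 18 6S-A pools. The ratio of summed CPM was 8.11 (1.86 to 73.6) in WT cells, with adjusted p = 0.147, and 14.8 (3.68 to 129) in 6S-A cells, with adjusted p = 0.0403 (edgeR). Without a single replicate the 6S-A call was lost in 6 of 9 cases, with adjusted p of 0.124 and 0.106 without GFP-only replicate 1 or 3, 0.0869, 0.0627 and 0.0940 without 6S-A replicate 1, 2 or 3, and 0.0533 without WT replicate 2, and edgeR's own filter on low counts removed the gene.

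**Figure D2:**
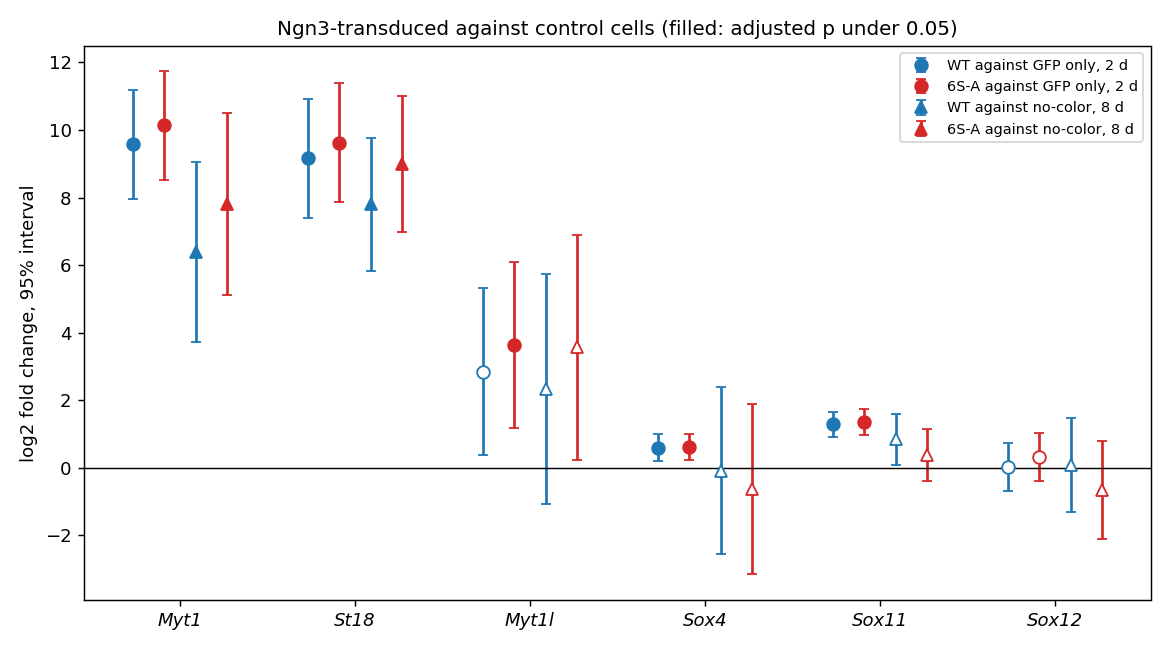
Log2 fold change of each gene in Ngn3-expressing against control cells, with 95% intervals from the edgeR fit; circles are 2 days and triangles 8 days, blue is WT and red 6S-A, and filled symbols have adjusted p under 0.05. Myt1 and St18 are filled in all 4 comparisons, Sox4 and Sox11 in both of 2 days and Myt1l in 6S-A cells at 2 days, and Myt1l, which rests on few reads, has wide intervals.

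Sox11 was expressed without Ngn3 and rose with it. Its 3 replicates had 36.3, 39.8 and 36.1 CPM in GFP-only, 73.6, 112 and 86.8 in WT and 72.5, 102 and 114 in 6S-A cells. All 6 Ngn3 values were above all 3 controls (ranges did not overlap for 26.2% of all genes in the WT and 32.8% in the 6S-A comparison). The fold was 2.44 in WT (log2 1.29, SE 0.18, adjusted p = 0.000232) and 2.56 in 6S-A cells (log2 1.36, SE 0.18, adjusted p = 8.63e-05, edgeR). Single pools overlapped a little: GFP-only pools had 21.7 to 57.7 CPM (median 37.2), WT pools 52.8 to 140 (102) and 6S-A pools 48.7 to 172 (98.7). The Sox11 call held without any 1 replicate, at log2 fold changes of 1.22 to 1.52 in 6S-A cells.

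Sox4 had the highest level of the 6 genes and the smallest change among those called. GFP-only replicates had 176, 119 and 157 CPM, WT replicates 197, 199 and 284, and 6S-A replicates 208, 208 and 274. The groups did not overlap, as was the case for 26.2% of all genes in the WT and 32.8% in the 6S-A comparison. The log2 fold change was 0.60 (SE 0.18, adjusted p = 0.0463) in WT and 0.61 (SE 0.18, adjusted p = 0.0312) in 6S-A cells (edgeR), or 1.52-fold and 1.53-fold. The gain was smallest in replicate 1, where GFP-only cells were highest, at 0.16 in WT and 0.24 in 6S-A cells on the log2 scale, against 0.75 and 0.86 in WT and 0.81 and 0.81 in 6S-A cells in replicates 2 and 3.

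How firm the Sox4 calls are depended on the fit. Blocked by replicate number, the adjusted p was 0.00269 in WT and 0.00152 in 6S-A cells (edgeR), and by DESeq2 it was 0.0187 and 0.0115. With a replicate left out and no block, calls were lost. In WT cells the adjusted p was 0.190 and 0.0937 without GFP-only replicate 2 or 3, 0.0557 and 0.0586 without 6S-A replicate 1 or 2, and 0.0505 and 0.179 without WT replicate 2 or 3, and in 6S-A cells it was 0.137 and 0.0675 without GFP-only replicate 2 or 3 and 0.133 without 6S-A replicate 3 (edgeR). From the first technical repeats alone it was 0.0852 and 0.213.

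Sox12, the third SoxC gene, was low and did not pass the test. GFP-only cells had 3.84, 5.59 and 4.81 CPM, WT cells 5.20, 5.29 and 3.84, and 6S-A cells 3.25, 8.12 and 6.39. The ranges overlapped. The log2 difference was 0.02 in WT (95% interval -0.69 to 0.73, adjusted p = 0.984) and 0.31 in 6S-A cells (-0.39 to 1.02, adjusted p = 0.613, edgeR).

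Divided by exon length, so that genes can be compared, Sox4 and Sox11 were the most abundant of the 6 at 2 days, and St18 and Myt1, which changed more, came next in Ngn3 cells. In WT cells Sox4 had 47.3 ± 10.4 CPM per kb and Sox11 10.9 ± 2.33. St18 had 3.99 ± 2.52, Myt1 3.39 ± 2.07, Sox12 1.07 ± 0.18 and Myt1l 0.0160 ± 0.0081 CPM per kb. In GFP-only cells the order began with Sox4 at 31.4 ± 6.05, Sox11 at 4.50 ± 0.25 and Sox12 at 1.07 ± 0.20 CPM per kb, while the 3 Myt1 family genes were at or below 0.00636.

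WT and 6S-A Ngn3 were then compared with each other, the question of the study being what loss of the phosphorylated sites does to the protein's output. No member passed the test at 2 days, where 3 of 23844 genes did (0.0126%, and 147 with the replicate number as a block). Myt1 was 0.56 higher in 6S-A cells on the log2 scale (95% interval -0.26 to 1.37), St18 0.47 higher (-0.46 to 1.39) and Myt1l 0.79 higher (-1.25 to 2.82). The SoxC genes were closer, with Sox4 at 0.01 (-0.38 to 0.40), Sox11 at 0.07 (-0.30 to 0.44) and Sox12 at 0.29 (-0.41 to 1.0). By replicate number, Myt1 was higher in 6S-A cells in 3 of 3 pairs (0.99, 0.77 and 0.26 on the log2 scale) and St18 in 2 of 3 (0.79, 1.32 and -0.10). Each SoxC gene had pairs in both directions. Blocked by replicate number, the difference was 0.66 for Myt1 (SE 0.17, adjusted p = 0.118) and 0.64 for St18 (SE 0.25, adjusted p = 0.440, edgeR), still short of the threshold over all genes.

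At 8 days, Myt1 and St18 were the 2 genes of the 6 that were higher than in no-color cells, in WT cells (0.741% of the 19696 genes tested were called higher, 0.914% in either direction) and in 6S-A cells (1.37% and 1.71%). Blocked by replicate number, 472 and 704 genes were called in place of 180 and 337, and the members called stayed the same. The median log2 fold change of the 6 was 1.6 in WT and 1.98 in 6S-A cells, against 0.01 and 0.04 over all genes, but Myt1l, which was not called, is again 1 of the 2 middle genes. Without replicate 1 of the same Ngn3 group the medians were 0.76 and 0.087, they were 0.79 and 0.34 under the filter that leaves Myt1l out, and that of 6S-A cells was 0.29 from first technical repeats. No SoxC gene passed the test at this time. Here each protein was compared with the mean of both no-color groups, and the summed reads per replicate were fewer. The hormone list summed to at most 10.6 CPM in no-color replicates, 7.12 to 3038 in WT and 38.1 to 3139 in 6S-A cells, nearly all of it Sst and Ghrl, while Ins1, Ins2 and Gcg had no read in WT or 6S-A cells. The median WT replicate had 9.92 CPM, so only 1 WT replicate lay above the no-color cells. The endothelial list summed to at most 0.328, 1.28 and 3.84 CPM, the acinar list to 7.0 to 20.7, 0 to 6.11 and 0.307 to 12.4, and the ductal list to 17580 to 42220, 14870 to 17480 and 10650 to 26180 CPM, and their part in these results was not tested.

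St18 was the firmest of these. No-color replicates had 2, 0, 0, 3, 0 and 0 reads. WT replicates had 42.2, 11.8 and 2.57 CPM and 6S-A replicates 84.0, 20.1 and 29.95 CPM, all above every control (ranges did not overlap for 5.22% of genes in the WT and 5.79% in the 6S-A comparison). The log2 fold change was 7.79 (SE 0.94, adjusted p = 0.000501) in WT and 9.0 (SE 0.95, adjusted p = 8.41e-05) in 6S-A cells (edgeR). Reads were found in all 4 WT pools and in all 6 pools of 6S-A cells. With replicate 1 of every group left out, a choice made after seeing the data, the WT call was lost (log2 8.58, adjusted p = 0.0647).

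Myt1 had 1, 0, 2, 1, 0 and 0 reads in the no-color replicates, 15.5, 5.12 and 0 CPM in WT and 33.9, 9.48 and 12.9 CPM in 6S-A cells. The 6S-A replicates lay above all controls (ranges did not overlap for 5.79% of genes), with a log2 fold change of 7.81 (SE 1.28, adjusted p = 0.00377, edgeR). WT replicate 3, 1 pool at passage 5, had no Myt1 read, which allows up to 0.593 CPM for counting error, and so WT overlapped the controls, with a log2 fold change of 6.40 (SE 1.26, adjusted p = 0.0215). The same replicate was also the lowest WT value for St18. The WT call for Myt1 was lost against the no-color cells of WT organoids alone (log2 5.32, adjusted p = 0.278). It was also lost without WT replicate 1 (adjusted p = 0.205), without no-color WT replicate 1 (0.103), without no-color 6S-A replicate 1, 2 or 3 (0.0829, 0.0683 and 0.0758), with the first technical repeats alone (0.0533) and with replicate 1 of every group left out (0.732), and the 6S-A call was lost in the last case too (0.233, edgeR).

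**Figure D3:**
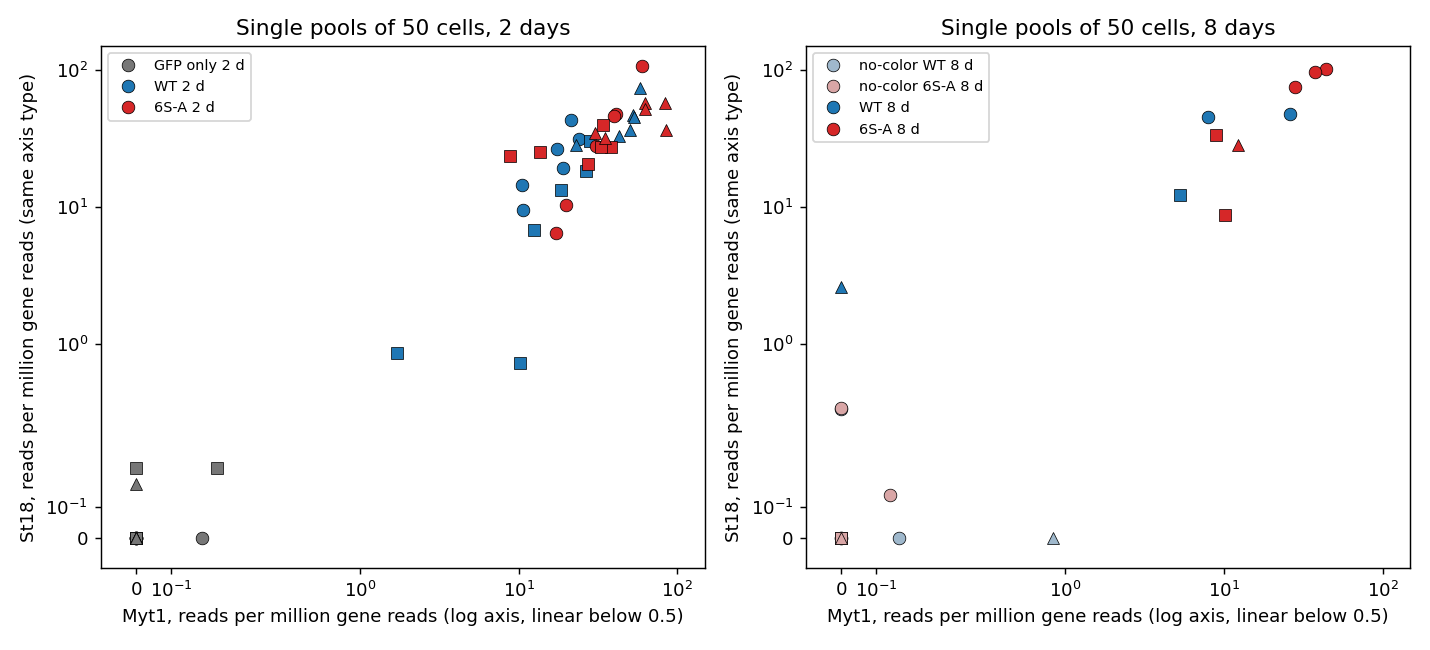
St18 against Myt1 in single pools of 50 cells, in CPM without TMM scaling on log axes that are linear below 0.5, with 2 days on the left and 8 days on the right; shape marks the replicate as circle 1, square 2 and triangle 3. Pools with Ngn3 lie in a band away from the controls near 0, apart from 2 pools of WT replicate 2 at 2 days with few St18 reads and the pool of WT replicate 3 at 8 days with no Myt1 read.

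Myt1l reached its highest level in 1 replicate. In 6S-A cells at 8 days replicate 1 had 49 reads (2.96 CPM), with 5.02 and 5.46 CPM in 2 of its pools and 0.165 in the third, while replicates 2 and 3 had 1 and 0 reads. WT replicates had 10, 1 and 0 reads, and no-color replicates 4 reads in all. The log2 fold change was 3.57 (95% interval 0.24 to 6.90, adjusted p = 0.371) in 6S-A and 2.34 (-1.06 to 5.74, adjusted p = 0.662) in WT cells (edgeR).

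For Sox4 at 8 days, the replicate number separated the values more than the group did. Replicate 1 had 9.78 CPM in no-color WT, 15.6 in no-color 6S-A, 7.23 in WT and 4.78 in 6S-A cells. Replicates 2 and 3 had 98.0 and 364, 51.4 and 39.4, 104 and 101, and 77.9 and 64.2 CPM in the same groups. All 11 pools of replicate 1 lay at 4.27 to 17.0 CPM and all other retained pools at 34.9 to 264. The log2 difference from no-color cells was -0.09 in WT (95% interval -2.56 to 2.39, adjusted p = 0.993) and -0.63 in 6S-A cells (-3.16 to 1.90, adjusted p = 0.906, edgeR). At 2 days replicate 1 was not low, at 176, 197 and 208 CPM. The no-color WT replicate 3 with 364 CPM is 1 pool with the fewest reads of all replicates (2397470).

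Sox11 did not show this split. It had 14.1, 29.6 and 25.9 CPM in no-color WT cells and 19.3, 30.2 and 45.7 in no-color 6S-A cells. WT cells had 52.8, 52.5 and 40.3 and 6S-A cells 41.0, 38.8 and 26.6 CPM. Both comparisons overlapped. The log2 difference was 0.85 (95% interval 0.10 to 1.61, adjusted p = 0.398) in WT and 0.39 (-0.38 to 1.15, adjusted p = 0.769) in 6S-A cells (edgeR). By replicate number, Sox11 differed from its own no-color cells by 1.9, 0.823 and 0.635 in WT and by 1.082, 0.361 and -0.78 in 6S-A cells. Tested directly, the change from the effects of 2 days (1.29 and 1.36) did not pass. It was -0.43 (-1.30 to 0.44) in WT and -0.96 (-1.83 to -0.09, adjusted p = 0.849, edgeR) in 6S-A cells, and the controls of the 2 days differ in kind. Sox12 had 2.46 to 13.8 CPM over the 12 replicates, with log2 differences of 0.09 (-1.31 to 1.49) and -0.67 (-2.12 to 0.78).

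**Figure D4:**
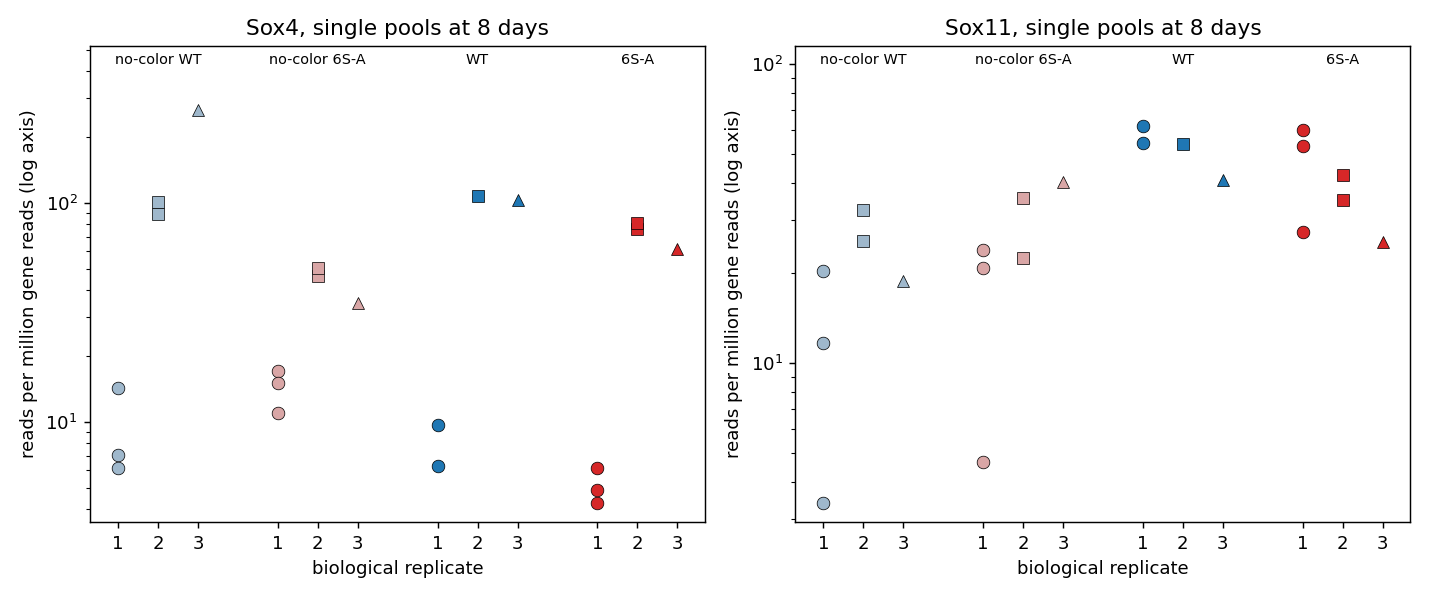
Sox4 and Sox11 in single pools at 8 days, in CPM without TMM scaling on a log axis, by group and biological replicate (circle 1, square 2, triangle 3). Every Sox4 pool of replicate 1 is at 17.0 or below in all 4 groups and every other retained pool at 34.9 or above, whereas Sox11 pools of the replicates overlap.

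Between 6S-A and WT cells at 8 days no gene passed the test (0%, and 0 genes with DESeq2), while 415 had an unadjusted p under 0.05, none of them a member. Myt1 was 1.41 higher in 6S-A cells on the log2 scale (95% interval -1.08 to 3.89), St18 1.21 higher (-0.55 to 2.96) and Myt1l 1.22 higher (-2.55 to 5.0). Sox4 was at -0.54 (-3.40 to 2.31), Sox11 at -0.46 (-1.36 to 0.43) and Sox12 at -0.75 (-2.39 to 0.88). By replicate number, Myt1 and St18 were higher in 6S-A cells in 3 of 3 pairs, at 0.99, 0.76 and 3.48 on the log2 scale for St18 and 1.12 and 0.87 for Myt1 in replicates 1 and 2, while WT replicate 3 had no Myt1 read. Each SoxC gene was lower in 6S-A cells in 3 of 3 pairs. The values were -0.584, -0.411 and -0.655 for Sox4, -0.364, -0.433 and -0.599 for Sox11 and -0.974, -0.056 and -0.691 for Sox12. Whether the difference between the proteins changed from 2 to 8 days was tested directly, and no member passed (change of 0.84 for Myt1, interval -1.60 to 3.28, and of 0.74 for St18, -1.33 to 2.82; 0 of 24945 genes by edgeR, 750 at an unadjusted p under 0.05 and 4 by DESeq2).

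The no-color cells of 6S-A and WT organoids were compared in the same way, and no member passed (0 of 19696 genes by edgeR, 1649 at an unadjusted p under 0.05 and 38 by DESeq2). Sox12 was 5.45, 4.46 and 13.8 CPM in WT and 3.37, 3.15 and 3.69 in 6S-A organoids, without overlap (as for 12.3% of genes), at a log2 difference of -1.17 (95% interval -2.82 to 0.48, adjusted p = 0.725). Sox4 differed by -2.14 (-5.10 to 0.82, adjusted p = 0.712, edgeR).

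From 2 to 8 days, 1 of the 6 genes passed the test, in 6S-A cells only. Time of induction and any batch of sorting or library making cannot be told apart in this comparison. In 6S-A cells Sox11 fell by 1.43 on the log2 scale (SE 0.32, adjusted p = 0.0443, edgeR, in a fit of all 7 groups), where 0.2% of the 24945 genes tested were called lower and 0.433% in either direction (787 genes in place of 108 with the replicate number as a block). Over all genes the median log2 change was -0.12 in 6S-A, -0.14 in WT and -0.18 in control cells, a shift to be set against the values that follow. In WT cells Sox11 differed by -0.90 (SE 0.32, adjusted p = 0.430, 0.116% of genes called, and 336 in place of 29 with the block) and in control cells by -0.47 (SE 0.27, adjusted p = 0.427, 0.914% called, and 1503 in place of 228). That the change differed from that of the controls was not shown (-0.96, adjusted p = 0.849, 0.012% of genes called). No member passed such a test in WT cells either (0%, 0 of 24945 genes by edgeR, 1319 at an unadjusted p under 0.05 and 64 by DESeq2). The Sox11 call was lost in 14 of the 21 cases with 1 replicate left out, at adjusted p of 0.0521 to 0.234: without any replicate of GFP-only, WT or 6S-A cells of 2 days, any of 6S-A cells of 8 days, no-color 6S-A replicate 2 or WT replicate 1 of 8 days. It was also lost with scran size factors (adjusted p = 0.0607), with first technical repeats alone (0.164), with near-identical repeats counted once (0.0514) and without passage 5 (0.0614, edgeR).

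The other members did not pass in this fit. Myt1 differed between 8 and 2 days by -0.94 in 6S-A (95% interval -2.66 to 0.78) and -1.78 in WT cells (-3.56 to 0.01), and St18 by 0.32 (-1.14 to 1.78) and -0.42 (-1.90 to 1.05), while Neurog3 differed by -3.46 (adjusted p = 0.01) and -2.61 (adjusted p = 0.0758). Sox4 differed by -2.24 in 6S-A cells (SE 1.09, adjusted p = 0.439) and passed with the replicate number as a block (-2.92, adjusted p = 0.0136) or with replicate 1 of 8 days left out (-1.69, adjusted p = 0.0275). The block sets replicate numbers apart within each day, so the spread between replicate numbers is left out of the error of a comparison across days, and these blocked calls cover only the replicates at hand. Control cells of 8 and 2 days differ in sorting (no color against GFP) as well as in time.

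Ordered by mean CPM, Myt1 ran from 6S-A at 2 days (36.1) over WT at 2 days (24.3), 6S-A at 8 days (18.7) and WT at 8 days (6.86) to the controls (0.406 at most), and neighbours in this order overlapped throughout. St18 was highest in 6S-A at 8 days (44.7), followed by 6S-A and WT at 2 days (35.9 and 25.8) and WT at 8 days (18.9), which overlapped in turn, and the gap to the controls (0.0612 at most) was the only one without overlap (13.6% of all genes did not overlap between WT at 8 days and the next group, no-color 6S-A). Sox11 had such gaps between WT at 2 days (90.7) and WT at 8 days (48.5), where 20.8% of genes did not overlap, and between WT at 8 days and GFP-only cells (37.4), where 20.6% did not. Sox4 had a gap between GFP-only cells (150.3) and WT at 8 days (70.7), the same pair of groups, and Sox12 between GFP-only (4.75) and no-color 6S-A cells (3.40), where 26.9% of genes did not overlap. All neighbours of Myt1l overlapped.

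The genes whose pattern over the 21 replicates lay nearest to each member were found by the root mean square difference of centred log2 CPM. For Myt1 these were Plcxd3 (0.64), Kcnb2 (0.999) and Lrrn2 (1.08), and for St18 Gng4 (0.77), Rfx6 (0.81), an endocrine transcription factor, and Nxph1 (0.81). Myt1 and St18 differed from each other by 1.30, and both had SDs over 3.5 across replicates. Among the nearest to Sox11 were Dip2b (0.40) and Igf2bp2 (0.41), and the nearest were for Sox4 Bloc1s4 (0.65), Bri3 (0.68) and Fam122a (0.68), for Sox12 Lemd2 (0.35), Ces2h (0.35) and Pdcd11 (0.39), and for Myt1l Asphd1 (0.64), Rab3d (0.70) and Tbc1d16 (0.71). The small values of Sox11 and Sox12 go with their small SDs across replicates (0.82 and 0.60), and a low value there says little.

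The Myt1 family is known for recruiting corepressors, and of 8 genes of such complexes and partners 2 were higher in WT and 3 in 6S-A cells at 2 days, and none was lower. Of all genes, 6.56% and 9.43% were higher and 5.23% and 8.62% lower. The list's median log2 fold change was 0.08 and 0.13. Rcor2, a CoREST subunit, had 1.55 ± 0.38 CPM in GFP-only, 23.3 ± 8.11 in WT and 36.9 ± 12.8 in 6S-A cells (log2 3.91, SE 0.34, adjusted p = 7.14e-06, and 4.56, SE 0.34, adjusted p = 1.21e-06, edgeR). Kdm1a, the histone demethylase that CoREST binds, was 0.76 and 0.78 higher on the log2 scale (adjusted p = 0.0121 and 0.0069). Sin3b, named after its values were seen, was the third in 6S-A cells (0.61). At 8 days Rcor2 alone passed, in 6S-A cells (3.42, SE 0.77, adjusted p = 0.0296, edgeR). Of all genes, 0.914% in WT and 1.71% in 6S-A cells were called then in either direction.

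Of 16 other Sox genes 11 were tested at 2 days, and 2 were higher in WT and 6S-A cells, where 6.56% and 9.43% of all genes were. Their median log2 fold change was 0.05 and -0.07. Sox21 rose from 6.97 ± 0.66 CPM to 17.5 ± 4.23 in WT (log2 1.33, SE 0.23, adjusted p = 0.00134) and 19.6 ± 4.13 in 6S-A cells (1.49, SE 0.23, adjusted p = 0.000363). Sox2 had no read in GFP-only cells and 0.415 ± 0.547 and 1.07 ± 0.553 CPM in WT and 6S-A cells (adjusted p = 0.0469 and 0.0099, edgeR). Sox7, named after its values were seen, was the 1 lower gene, in 6S-A cells (-0.66), where 8.62% of all genes were lower. Sox17, also named after its values were seen, was not called. Its replicates had 4.355 to 11.95 CPM in GFP-only, at most 1.58 in WT and 0.312 to 2.70 in 6S-A cells. They did not overlap the control, as for 26.2% and 32.8% of all genes. Sox9, the duct and progenitor factor, had 370 ± 56.8, 380 ± 16.7 and 353 ± 36.1 CPM in GFP-only, WT and 6S-A cells, with log2 differences of 0.05 (95% interval -0.23 to 0.32) and -0.07 (-0.34 to 0.21). At 8 days 7 were tested and none passed, where 0.914% of all genes did in WT and 1.71% in 6S-A cells.

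Most endocrine transcription factors rose at 2 days. Of 20 listed, 19 were tested at 2 days, and 14 were higher and 2 lower in WT cells and 14 higher and 3 lower in 6S-A cells. Of all genes, 6.56% and 9.43% were higher and 5.23% and 8.62% lower. The list had median log2 fold changes of 6.38 and 7.28 (7.25 in 6S-A cells with a gene at 0 in the controls set to its bound). Neurog3, which the vectors carry, is 1 of the genes counted as higher in each case, at 8 days too, and its rise was set by the design. Neurod1, an early effector of Ngn3, had 0.0122 ± 0.0211 CPM in GFP-only cells and 68.1 ± 60.5 and 73.4 ± 23.1 in WT and 6S-A cells (adjusted p = 0.00117 and 0.000712, edgeR). Rfx6, a factor of islet development, had 51.4 ± 41.8 and 74.2 ± 13.5 CPM. The lower genes, named after their values were seen, were Hhex and Glis3 in WT and 6S-A cells (-1.46 and -1.37, and -1.83 and -1.78) and Nkx6-1 in 6S-A cells (-2.12). At 8 days 17 were tested, of which 7 were higher in WT and 9 in 6S-A cells, where 0.741% and 1.37% of all genes were.

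Neuronal genes, the other known setting of the Myt1 family and SoxC factors, rose in most cases at 2 days. Of 20 listed, 17 were tested at 2 days, 10 being higher and 1 lower in WT cells and 12 higher and 1 lower in 6S-A cells (6.56% and 9.43% of all genes were higher and 5.23% and 8.62% lower), with medians of 3.61 and 4.26. Tubb3, a neuronal tubulin, went from 0.790 ± 0.777 CPM to 68.5 ± 21.4 in WT and 131 ± 12.9 in 6S-A cells (log2 6.40, SE 0.49, adjusted p = 2.64e-05, and 7.31, SE 0.50, adjusted p = 6.98e-06, edgeR). Nefm, a neurofilament, reached 21.7 ± 18 and 44.1 ± 14.7 CPM from 0.212 ± 0.190. Dcx, a microtubule protein of migrating neurons, had no read in GFP-only cells and 5.35 ± 0.28 and 7.53 ± 1.45 CPM. Stmn3, a tubulin regulator, stayed below 1.5 CPM in every replicate of 2 days though it passed the test (adjusted p = 0.0095 and 0.0061). The lower gene was Stmn1 (-1.12 and -0.94), named after its values were seen. At 8 days 15 were tested, of which 2 were higher in WT and 6 in 6S-A cells, where 0.741% and 1.37% of all genes were.

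Of 16 Notch receptors, ligands and effectors, all tested at 2 days, 5 were higher and 1 lower in WT and 7 higher and 1 lower in 6S-A cells, with medians of 0.55 and 0.95. Of all genes, 6.56% and 9.43% were higher and 5.23% and 8.62% lower. Hes6, a Hes family member that opposes Hes1, rose from 69.9 ± 8.72 CPM to 551 ± 43.1 and 726 ± 51.8 (log2 2.99, SE 0.12, adjusted p = 9.96e-09, and 3.38, SE 0.13, adjusted p = 2.96e-09, edgeR). The ligand Dll4 rose from 0.597 ± 0.218 to 15.7 ± 11.4 and 21.8 ± 11.5 CPM. Heyl, a Notch effector, reached 8.98 ± 6.22 and 14.8 ± 9.39 CPM. Nrarp, a Notch feedback inhibitor, had 3.14 ± 1.03, 7.33 ± 3.16 and 6.30 ± 2.16 CPM, which passed in WT (adjusted p = 0.0478) but not in 6S-A cells (0.0848), and the difference between the proteins did not pass (-0.23, adjusted p = 1). The lower gene was the ligand Jag1 (-0.91 and -1.16), named after its values were seen. At 8 days 13 were tested, and Dll4 was higher in WT cells and Dll4 and Hes6 in 6S-A cells, where 0.741% and 1.37% of all genes were.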

How the data were processed

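RNA of pooled sorted cells was amplified by Smart-seq2 and sequenced as single reads. The deposited values are raw read counts per gene, which the authors made with GSNAP and HTSeq (0.5.3p3), as the submitters' processing notes name them, on mm10 with an Ensembl annotation. Of all reads, 22.52% were not aligned, 14.37% had no feature and 8.056% were ambiguous, and these rows stayed out of library sizes.

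From the counts, libraries with under 30% spike-in reads, over 1000000 gene reads and over 10000 detected genes were kept (76 of 77). Counts were summed per biological replicate, and genes detected in at least 5 libraries were tested with edgeR 4.0.16 (R 4.3.3), by TMM scaling, the robust quasi-likelihood test and Benjamini-Hochberg adjustment at 0.05, with 95% intervals. Time points were fitted separately, and changes over time in 1 fit of all 7 groups. Ensembl ids were matched to symbols for 45143 of 46078 genes, positions are from GENCODE M21 and promoters from RefSeq. Alternatives used DESeq2 1.42.0 and scran 1.30.0. The fits were tested on simulated data.

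Among 148 pairs of technical repeats, 6 were closer than sampling of the others allows (chi-square per gene 1.59 to 2.35, against 5.21 or more), and they were summed within their replicate. Samples with the same replicate number deviated together over genes above 10 CPM, with correlations of 0.151 to 0.578 at 2 days and 0.12 to 0.682 at 8 days, so the numbers were taken to pair the samples. Over all genes tested the lowest were 0.0436 and 0.069. The main tests did not use this pairing, and the replicate number as a block is the alternative that does. For Myt1 between proteins at 2 days the SE was 0.37 in the main test and 0.17 with the block.

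The text names the 6 members and Neurog3 in each comparison, Sox9, and per member the 3 nearest genes by pattern. Per list it names at most 4 genes by the size of the WT change at 2 days, among those past the threshold there. Members and lists were chosen with earlier results of these data known. Some genes that this rule names are not reported here.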

Additional observations from a re-analysis of the deposited data

Results flagged for a closer look

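In single pools, 24 groups of 4 to 6 pools were examined for a pool far from the rest, of which chance marks about 1 in 20. That rate does not hold for Myt1 and St18 in no-color cells, where most pools have no read and 1 or 2 reads set a pool apart. Among no-color cells at 8 days, 1 pool of WT organoids stood out for Myt1, at 0.834 CPM without TMM scaling against 0.164 in the next, and 1 pool of 6S-A organoids, at 0.140 against 0. For St18 the same held for 1 pool of WT organoids at 0.423 against 0 and for 1 of 6S-A organoids at 0.425 against 0.140. The Myt1 values rest on 2 reads and 1 read and the St18 values on 2 reads each. For Sox4, the pool of no-color WT replicate 3 had 264.0 CPM against 100.5 in the next.

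The library that was left out for its read number (849278 reads, WT at 8 days, replicate 2) had an St18 level of 11.8 CPM, above the 0.425 of the highest no-color pool, and a Sox4 level of 438 CPM, above the 264.0 of the highest no-color pool. It had no Myt1 read, which allows up to 3.53 CPM for counting error, against 5.27 CPM in the other pool of that replicate.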

How the results depend on the processing

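Over all alternatives, 1806 values of members kept their direction and side of the threshold, 47 were no longer past it, 2 were newly past it, 3 came to 0 and 96 changed direction, 59 of them with 1 replicate left out. Of those 96, 0 were past the threshold either way. With replicate number as a block (the replicate block), Sox4 in 6S-A cells from 2 to 8 days was newly past the threshold, and no other member's call changed. Depth limits Myt1l, which has at most 49 reads in any replicate. From 2 to 8 days the block leaves the spread between replicate numbers out of the error. The causes of the changes below were not tested, beyond fewer samples or reads where some were left out. edgeR's own filter removed Myt1l, which then has no value.

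Genes called in WT against GFP-only cells at 2 days were 2810, with 638 from first technical repeats and 4291 under the block, and members 4 and 2 from first repeats. For 6S-A they were 4305, with 1053 from first repeats, and members 5 and 2. Between proteins at 2 days 3 genes became 101 by DESeq2, 0 from first repeats, 5 with near-identical repeats counted once and 147 under the block.

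At 8 days the WT count of 180 became 551 by DESeq2, 106 from first repeats, 472 under the block, 49 against own no-color cells and 20 without replicate number 1, an alternative chosen after seeing the data. Members there were 2, then 1 from first repeats, 1 against own controls and 0 without number 1. The 6S-A count of 337 became 822 by DESeq2, 704 under the block, 115 against own controls, 212 without passage 5 and 52 without number 1, with members 2 and then 1 without number 1. Between no-color groups 0 became 38 by DESeq2.

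From 2 to 8 days the WT count of 29 became 270 by DESeq2, 13 with scran, 13 with no library limits, 0 from first repeats, 336 under the block, 18 without passage 5 and 147 without number 1. The 6S-A count of 108 became 721 by DESeq2, 5 from first repeats, 787 under the block, 198 without passage 5 and 742 without number 1. Members there were 1, with 0 by scran, from first repeats, with near-identical repeats counted once and without passage 5, and 2 under the block and without number 1. The control count of 228 became 1110 by DESeq2, 10 from first repeats, 1503 under the block, 594 without passage 5 and 763 without number 1. The change of the WT effect had 0 genes, with 64 by DESeq2, 25 under the block and 1 without passage 5. That of 6S-A had 3, with 61 by DESeq2, 5 with no limits, 0 from first repeats, 37 under the block, 1 against own controls, 5 without passage 5 and 1 without number 1. That of the difference between proteins had 0, with 4 by DESeq2.

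With 1 replicate left out, genes called were 1966 to 2815 and 3302 to 4502 for WT and 6S-A at 2 days, 0 to 5 between them, 67 to 231 and 192 to 349 at 8 days, 0 to 2 between them, and 0 between no-color groups. From 2 to 8 days they were 1 to 57, 1 to 237 and 13 to 653 in WT, 6S-A and control cells, and 0 to 11, 0 to 20 and 0 for the changes of effect. Members called were 3 to 4 and 3 to 5 at 2 days, 1 to 2 and 2 to 2 at 8 days, 0 to 1 for 6S-A over time, and 0 elsewhere.

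The values that changed direction follow, as log2 differences. From first technical repeats they were, for Sox12, -0.44 in WT against GFP-only cells and -0.15 in control cells over time, between proteins at 2 days -0.18 for St18 and -0.27 for Sox4, and -1.32 for Myt1l between proteins at 8 days. The changes of effect there were 1.77 (WT) and -1.76 (6S-A) for Myt1l, 1.31 for St18 (6S-A) and -3.53 for Myt1l between proteins. With no library limits Sox4 in WT cells at 8 days was 0.32. Without passage 5 it was 0.36, Myt1l was 0.65 between no-color groups and 0.71 for the change of the WT effect, St18 was 0.026 in WT and Sox12 -0.24 in control cells over time. Against own no-color cells Sox12 was -0.50 in WT cells at 8 days and -0.50 for the change of the WT effect, and Sox4 0.44 in 6S-A cells at 8 days.

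Without number 1, at 8 days Sox12 was -0.64 in WT and Sox11 -0.021 in 6S-A cells. Over time, Myt1l was -0.70 in WT and -2.46 in 6S-A cells, Sox12 -0.41 in WT cells, and St18 -0.52 in 6S-A and -2.55 in control cells. Changes of effect were 0.66 for St18 and -0.61 for Sox12 (WT), -2.50 for Myt1l and 2.03 for St18 (6S-A), and -1.76 for Myt1l between proteins. Under the replicate block Myt1l was -0.082 in 6S-A cells over time, and changes of effect were -0.028 for Sox12 (WT), -0.42 for Myt1l and 0.11 for St18 (6S-A), and -0.18 for Myt1l between proteins. By DESeq2 St18 was -0.19 between no-color groups and Myt1l -0.15 for the change of the 6S-A effect.

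With 1 replicate left out, at 2 days Sox12 in WT cells ran from -0.13 to 0.15, and between proteins Sox4 from -0.14 to 0.21 and Sox11 from -0.069 to 0.25. At 8 days Sox4 and Sox12 in WT cells ran from -0.46 to 0.67 and -0.51 to 0.41, Myt1l and Sox4 in 6S-A cells from -0.26 to 4.6 and -1.16 to 0.13, Myt1l between proteins from -2.59 to 2.76, and Myt1l and St18 between no-color groups from -3.26 to 0.27 and -2.56 to 2.71. Over time, Myt1l, St18 and Sox12 in WT cells ran from -0.69 to 1.54, -1.88 to 0.16 and -0.40 to 0.49, Myt1l and St18 in 6S-A cells from -2.47 to 1.98 and -0.52 to 0.69, and Myt1, Myt1l, St18 and Sox12 in control cells from -0.021 to 1.41, -0.20 to 3.23, -0.89 to 1.54 and -0.21 to 0.24. The change of the WT effect ran from -2.24 to 1.20 for Myt1l, -2.72 to 0.47 for St18, -1.06 to 0.093 for Sox4 and -0.52 to 0.40 for Sox12. That of the 6S-A effect ran from -3.72 to 1.64 for Myt1l and -1.36 to 1.21 for St18, and that of the difference between proteins from -3.46 to 2.15 and -0.094 to 2.22.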
